A study of Mus musculus with 3 samples.

Results

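Transcripts of 9 complement genes were followed across the stromal cells of mouse subcutaneous fat. The genes are C3, C4b, C2, Cfb, C1ra, C1s1, Serping1, Cd55 and Masp1, a named list out of the 32285 genes in the count files, and 45 further complement genes were read beside them. The cells came from the inguinal subcutaneous depot of 3 wild-type C57BL/6J male mice aged 8 weeks. The stromal vascular fraction left after collagenase digestion was sorted for cells without CD31 (endothelial) and CD45 (leukocyte), and each mouse gave 1 droplet library (10x Genomics 3' v2), so there was 1 condition and no treated group. The labels call the cells adipocyte progenitors. Cells of 1 mouse are not replicates, and all comparisons between cell classes were made over the 3 mice.

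Complement is a cascade of blood and tissue proteins that tags and lyses targets. The classical and lectin pathways start with sets of proteases, C1r, C1s and MASP-1 among them, whose activation leads to cleavage of C4 and C2. The cleaved parts form a C3 convertase. The alternative pathway builds its convertase from C3 and factor B. C3 is where the pathways meet, and host cells are protected by inhibitors such as C1 inhibitor in the fluid phase and CD55, the decay-accelerating factor, on the membrane. Most plasma complement is made by the liver, but fibroblasts and adipose stromal cells also make several components, and interferons are known inducers of complement genes in many cell types.

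A UMI (unique molecular identifier) stands for 1 captured transcript. Barcodes passed if over 500 genes were detected and mitochondrial UMIs stayed below 5%, which left 12984, 6414 and 15179 cells in mice 1, 2 and 3. Their median depth was 7392.5, 12192.5 and 6667 UMIs. Cell classes were gated on raw UMIs of genes that are not in the complement list. Adipose stem cells (ASCs) had at least 3 Dpp4 plus Pi16 UMIs and at most 1 of Icam1 plus Fabp4, preadipocytes (PreAs) at least 4 Icam1 plus Fabp4 and at most 1 Dpp4, and adipogenesis-regulatory cells (Aregs) at least 1 each of Clec11a and Fmo2 with at most 1 each of Fabp4 and Dpp4. The gates held 19931 ASCs, 5735 PreAs and 1322 Aregs. Markers outside the gates were highest in the class of their name, by summed CPM (UMIs of a gene scaled to the same library total everywhere). The 5 ASC markers summed to 4533 to 4701 in ASCs, 1082 to 1139 in PreAs and 1563 to 1927 in Aregs. The 5 PreA markers summed to 3396 to 4205 in PreAs, 424 to 529.7 in ASCs and 1071 to 1411 in Aregs. The 5 Areg markers summed to 3078 to 3757 in Aregs, 186 to 258 in ASCs and 889 to 1548 in PreAs, so PreAs and Aregs were less separated by them than ASCs and Aregs. No cell was in both the ASC and PreA gates, 27, 24 and 39 cells were in both the ASC and Areg gates, and 22, 95 and 57 in both the PreA and Areg gates. Aregs were shallower than ASCs in each mouse (median 5160, 10957 and 4815 against 7327, 12056 and 6687 UMIs). Pairs of libraries shared 52, 81 and 64 cell barcodes.

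The sorted cells carried complement transcripts in all 3 classes. After each cell was thinned to 3000 UMIs, an ASC held a UMI of 5.17 ± 0.0488 of the 9 genes on average (SD, n = 3 mice), a PreA 4.38 ± 0.25 and an Areg 5.34 ± 0.122. The genes together took 0.907% ± 0.0487 of all UMIs in ASCs, 0.496% ± 0.0840 in PreAs and 0.945% ± 0.0876 in Aregs. PreAs were lowest in each mouse. In the edgeR quasi-likelihood test on summed UMIs with mouse as a block, 3 members were higher and 4 lower in PreAs than in ASCs, where 28% of the 13379 genes tested were higher and 28.6% lower. In Aregs against ASCs 6 members were higher and 2 lower, against 20.4% higher and 24.3% lower over all genes, and in Aregs against PreAs 6 were higher and 1 lower, against 12.6% and 12.7%. The median log2 fold change of the members was -0.07, 0.37 and 1.03 in these comparisons, and that of all genes 0.02, -0.03 and -0.03. Masp1, among the higher members in both comparisons against ASCs, passed the low-count filter only through its Areg sums.

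Promoter windows around the transcription start (RefSeq, GRCm38.p6) were read for 4 members, C3, C1ra, C1s1 and Cd55. They were searched on both strands for an interferon-response motif (GAAANNGAA, in 8.57% of 27025 promoters), a gamma-activated site (TTCNNNGAA, 8.47%), an NF-kB motif (GGANNTTCC, 4.24%) and a C/EBP motif (TTGCNNAA, 10.8%). The windows of C3, C1ra and C1s1 are shown because they hold a match (capitals), and the Cd55 window held none. The C3 window has a C/EBP match at -45 from the start. The C1ra window has a C/EBP match on the opposite strand at 16 and a gamma-activated match at 32. The C1s1 window, the first of 2 RefSeq starts, has a C/EBP match on the opposite strand at -242 and an NF-kB match at -12. The interferon-response motif was in none of the 4. The start used for C1ra lies inside the gene as GENCODE draws it. A match is a run of letters, and neither a match nor its absence was read as binding.
C3, chr17:57228087-57228386, minus strand: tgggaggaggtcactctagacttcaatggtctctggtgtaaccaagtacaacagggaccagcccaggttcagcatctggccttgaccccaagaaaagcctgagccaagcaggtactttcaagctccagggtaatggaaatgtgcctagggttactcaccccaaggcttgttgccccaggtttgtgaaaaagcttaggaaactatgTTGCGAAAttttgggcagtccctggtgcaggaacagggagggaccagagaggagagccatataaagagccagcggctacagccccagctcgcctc
C1ra, chr6:124512371-124512670, plus strand: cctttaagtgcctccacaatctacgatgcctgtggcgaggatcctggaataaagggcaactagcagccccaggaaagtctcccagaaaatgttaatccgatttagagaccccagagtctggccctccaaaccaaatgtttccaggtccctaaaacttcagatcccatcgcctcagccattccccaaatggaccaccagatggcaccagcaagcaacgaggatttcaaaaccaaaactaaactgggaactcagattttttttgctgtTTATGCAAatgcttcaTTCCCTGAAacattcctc
C1s1, chr6:124542310-124542609, minus strand: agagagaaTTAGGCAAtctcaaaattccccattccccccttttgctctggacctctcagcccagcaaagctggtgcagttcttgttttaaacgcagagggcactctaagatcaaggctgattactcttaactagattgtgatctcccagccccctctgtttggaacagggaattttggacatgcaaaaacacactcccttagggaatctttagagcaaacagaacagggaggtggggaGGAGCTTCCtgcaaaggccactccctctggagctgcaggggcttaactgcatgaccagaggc

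**Figure D1:**
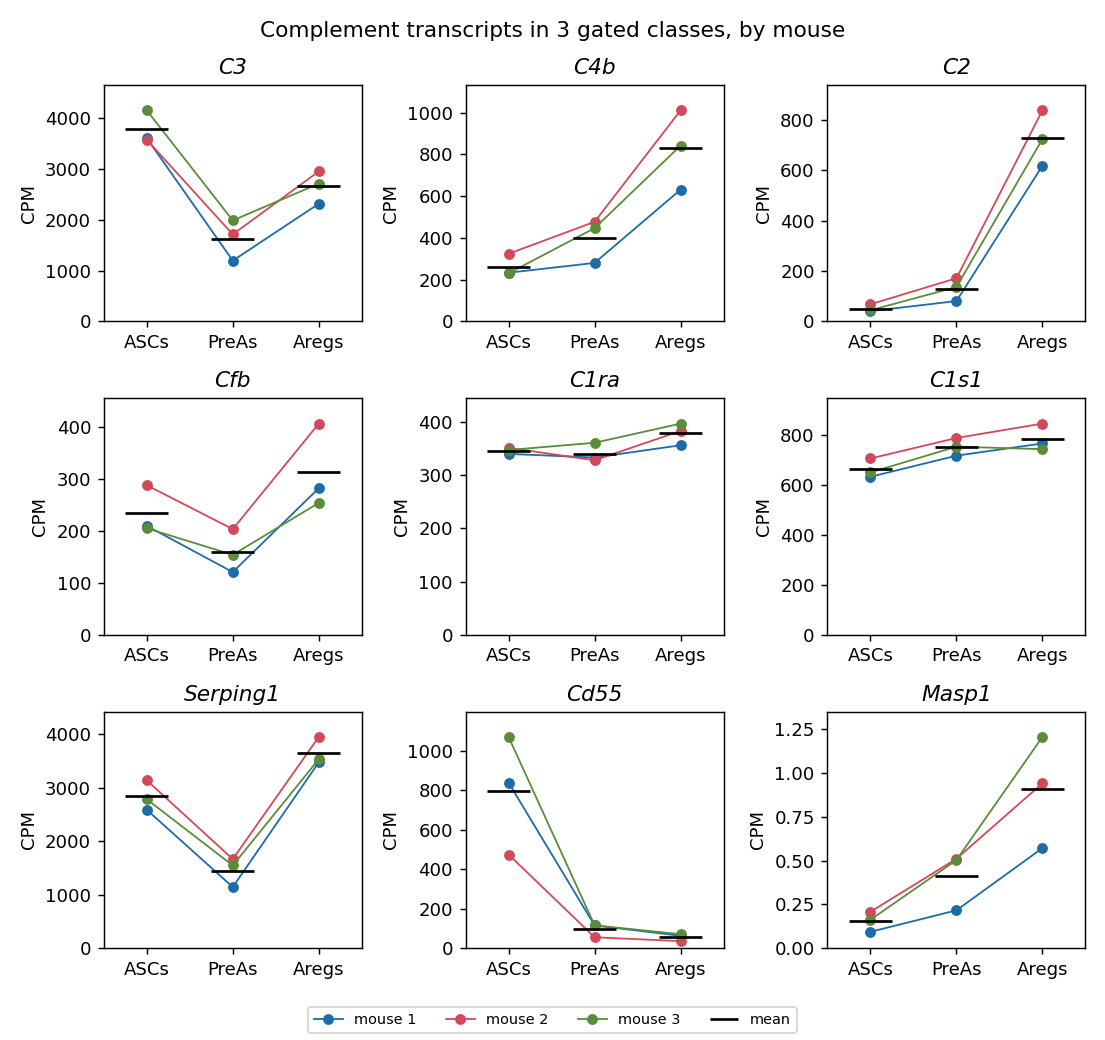
CPM of each complement gene (vertical axes, linear from 0) in gated ASCs, PreAs and Aregs, with 1 point and 1 line per mouse and a black bar for the mean of 3 mice. C3 and Serping1 dip in PreAs, C2 and C4b peak in Aregs, Cd55 is highest in ASCs, and C1ra and C1s1 stay nearly level.

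C3 encodes the central component that all pathways cleave. Its level was 3606, 3574 and 4154 CPM in ASCs of mice 1, 2 and 3, against 1196, 1712 and 1987 in PreAs and 2316, 2952 and 2711 in Aregs. The 3 classes did not overlap, with ASCs above Aregs and Aregs above PreAs. C3 was lower in PreAs than in ASCs by a log2 fold change of -1.28 (SE 0.11, edgeR adjusted p = 1.12e-06), lower in Aregs than in ASCs (-0.51, SE 0.11, adjusted p = 0.00242) and higher in Aregs than in PreAs (0.77, SE 0.11, adjusted p = 0.000275). C3 lies on chromosome 17 from 57203970 to 57228136 on the minus strand (GRCm38, as are all gene positions here).

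C3 was spread over nearly every ASC and unevenly over PreAs. At 3000 UMIs per cell, 99.7% ± 0.0912 of ASCs held a C3 UMI, 79.6% ± 7.31 of PreAs and 86.6% ± 1.93 of Aregs. The share in PreAs was 71.8% (95% exact Clopper-Pearson interval 69.9 to 73.7), 80.6% (78.5 to 82.6) and 86.3% (84.7 to 87.9) in mice 1, 2 and 3, and was below the ASC share in each mouse. The median PreA held 2, 3 and 4 C3 UMIs, the median ASC 10, 11 and 12. The deepest-expressing 10% of PreAs held 32.9% to 40.2% of the C3 UMIs of their class, against 18.5% to 19.5% in ASCs. Without thinning the shares differed less, by -8.52 percentage points between PreAs and ASCs in place of -20.1. For the thinned shares the exact sign-flip permutation test over 3 mice (two-sided) gave p = 0.25, the smallest it can give.

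Few cells of other types passed the sort to serve as a comparison for free RNA in the droplets. Mural cells, gated on Rgs5 plus Notch3, numbered 32, 25 and 29 with a median of 7831, 12828 and 5991 UMIs. At 3000 UMIs, 71.4%, 68.2% and 73.1% of them held a C3 UMI (intervals 51.3 to 86.8, 45.1 to 86.1 and 52.2 to 88.4), which overlap the intervals of PreAs in each mouse. Endothelial-gated cells, 40, 38 and 9, had a median of 2636.5, 2007 and 5349 UMIs, and 73.7%, 45.5% and 57.1% of the 19, 11 and 7 cells with 3000 UMIs held one. Before thinning the C3 shares were 90.6%, 84% and 82.8% in mural cells. The mural gate also carried 1123 to 1629 CPM of the ASC markers and 1594 to 3574 CPM of the PreA markers, so the part of free RNA and of mixed droplets in the low C3 values of PreAs was not tested. Serping1 was likewise present in 93.6% ± 3.78 of mural cells at this depth.

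**Figure D2:**
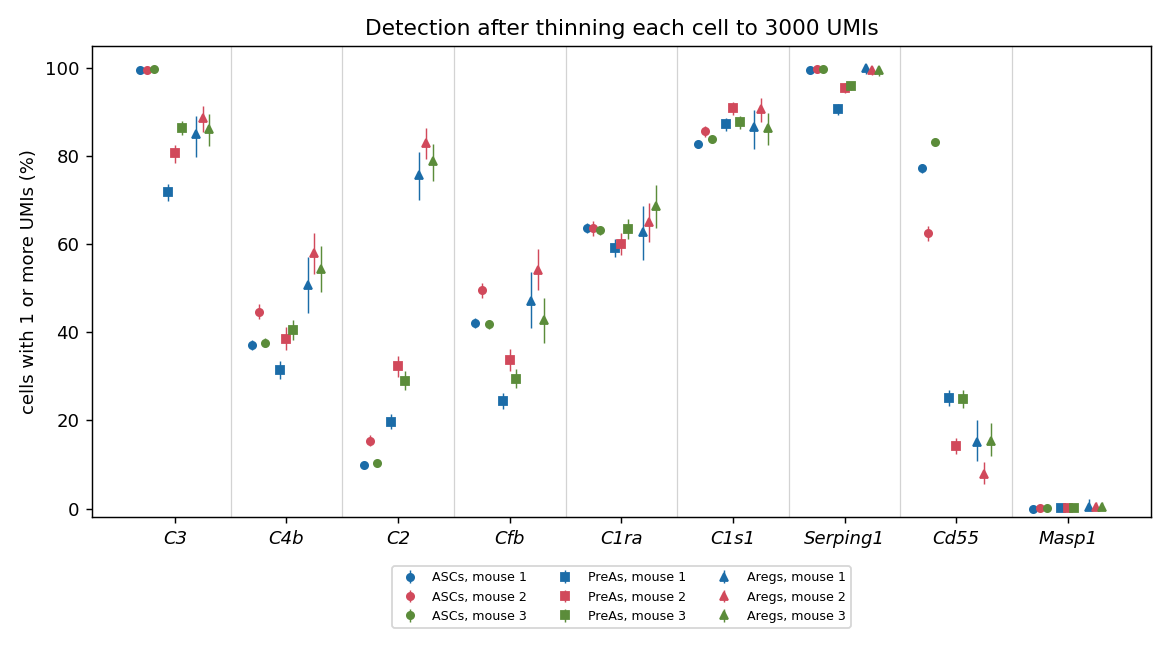
Percentage of cells (vertical axis) with at least 1 UMI of each gene after thinning to 3000 UMIs, by class (symbol) and mouse (colour), with 95% exact binomial intervals that cover counting error only. C3 is found in over 99% of ASCs and in 71.8% to 86.3% of PreAs, and C2 in 75.8% to 83.1% of Aregs against 9.91% to 15.3% of ASCs.

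C4b and C2 encode the components that form the classical and lectin C3 convertase, and of the 3 classes Aregs had the most of both. C2 measured 41.0, 68.2 and 44.5 CPM in ASCs, 80.9, 172 and 137 in PreAs and 619, 838 and 724 in Aregs of mice 1, 2 and 3. The classes did not overlap, and mouse 2 was highest and mouse 1 lowest in each class. The log2 fold change of C2 was 3.85 in Aregs against ASCs (SE 0.13, edgeR adjusted p = 1.84e-09), 2.58 in Aregs against PreAs (SE 0.12, adjusted p = 1.3e-07) and 1.28 in PreAs against ASCs (SE 0.12, adjusted p = 2.8e-06). By size of fold change C2 ranked 333 of the 13379 genes in Aregs against ASCs. At 3000 UMIs a C2 UMI was found in 79.2% ± 3.66 of Aregs, 27.0% ± 6.5 of PreAs, 11.9% ± 3.00 of ASCs and 24.4% ± 11.9 of the few mural cells. PreAs were close to the mural level and ASCs below it, but the mural gate also carried PreA and ASC markers and is no separate background. C2 lies on chromosome 17 from 34862604 to 34898265 and its neighbour Cfb from 34856374 to 34862518, both on the minus strand.

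C4b measured 234, 324 and 231 CPM in ASCs, 280.4, 477 and 447 in PreAs and 632, 1012 and 843 in Aregs. Aregs lay above both other classes in each mouse, while the ranges of ASCs and PreAs overlapped between mice. The log2 fold change was 1.64 in Aregs against ASCs (SE 0.10, edgeR adjusted p = 1.99e-07), 1.10 in Aregs against PreAs (SE 0.10, adjusted p = 1.24e-05) and 0.55 in PreAs against ASCs (SE 0.10, adjusted p = 0.000653). With stricter gates the last was 0.34 and missed the threshold of the edgeR test (adjusted p = 0.0597). The share of cells with a C4b UMI did not follow the level: 36.8% ± 4.76 of PreAs and 39.8% ± 4.23 of ASCs held one. The difference ranged from -6.11 to 2.78 percentage points over the mice. C4b was more concentrated among PreAs, the top 10% of which held 58.4% to 64.0% of its UMIs, against 48.4% to 51.8% in ASCs. C4b lies on chromosome 17 from 34728380 to 34743882, and its paralog C4a had 153 UMIs in all kept cells against 94077.

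Cfb, which encodes factor B of the alternative convertase, was lowest in PreAs. It measured 209, 287 and 205 CPM in ASCs, 120.4, 203 and 154 in PreAs and 282, 406 and 253 in Aregs. Within each mouse the order was PreAs, ASCs, Aregs, while ranges over mice overlapped for ASCs and Aregs. The log2 fold change was -0.61 in PreAs against ASCs (SE 0.09, edgeR adjusted p = 8.83e-05), 0.41 in Aregs against ASCs (SE 0.09, adjusted p = 0.00299) and 1.03 in Aregs against PreAs (SE 0.09, adjusted p = 8.84e-06). Mouse 2 had the highest C2, C4b and Cfb level of the 3 mice in each class.

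C1ra and C1s1 encode the protease subunits of C1, and both were nearly level across the classes. C1ra measured 339.7, 351 and 347 CPM in ASCs, 333, 328 and 361 in PreAs and 356, 383 and 397 in Aregs. It was higher in Aregs than in PreAs by a log2 fold change of 0.20 (SE 0.06, edgeR adjusted p = 0.0277). That call was lost in 6 of 13 other settings, including without any 1 of the mice (0.18 to 0.22). At the main settings C1ra did not pass the threshold elsewhere (PreAs against ASCs -0.07, 95% interval -0.18 to 0.04). In Aregs against ASCs it passed in 3 of the 13 other settings. C1s1 measured 633, 706 and 650.4 CPM in ASCs, 718, 788 and 754 in PreAs and 767, 846 and 744 in Aregs. It was higher in Aregs than in ASCs (0.25, SE 0.06, edgeR adjusted p = 0.00536), while PreAs against ASCs gave 0.14 (95% interval 0.03 to 0.25, adjusted p = 0.0593). Of 13 other settings, 1 lost the call in Aregs against ASCs and 4 called C1s1 higher in PreAs than in ASCs. The genes are neighbours on chromosome 6, C1ra from 124512405 to 124523443 on the plus strand and C1s1 from 124530345 to 124542359 on the minus strand. Their paralogs C1rb and C1s2 had 76 and 103 UMIs, against 93893 and 190877.

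Masp1, the lectin-pathway protease gene, was near the limit of detection. It had 5, 8 and 10 UMIs in ASCs, 4, 10 and 7 in PreAs and 1, 5 and 3 in Aregs of mice 1, 2 and 3. Its CPM was 0.154 ± 0.0575, 0.410 ± 0.168 and 0.906 ± 0.319. Only its Areg sums were high enough to pass the low-count filter, so it was tested only through the class where it was highest. The test put it higher in Aregs than in ASCs (log2 fold change 2.46, SE 0.61, edgeR adjusted p = 0.00676) and in PreAs than in ASCs (1.35, SE 0.44, adjusted p = 0.0212). These calls rest on 9 Areg and 21 PreA UMIs: without mouse 3 they missed the threshold (edgeR adjusted p = 0.07 and 0.127), and without mouse 1 the second did (0.053). Masp1 was not tested without mouse 2, after thinning or with stricter gates, where it did not pass the low-count filter. Over the 10 other settings in which it was tested, the Areg call was lost in 1 and the PreA call in 5. Masp1 lies on chromosome 16 from 23449417 to 23520815.

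The regulators divided. Serping1, which encodes C1 inhibitor, the fluid-phase inhibitor of C1r, C1s and MASP proteases, measured 2589, 3142 and 2787 CPM in ASCs, 1142, 1666 and 1546 in PreAs and 3479, 3954 and 3537 in Aregs. The 3 classes did not overlap. It was lower in PreAs than in ASCs (log2 fold change -1.02, SE 0.08, edgeR adjusted p = 8.67e-07) and higher in Aregs than in ASCs (0.37, SE 0.08, adjusted p = 0.00365) and PreAs (1.39, SE 0.09, adjusted p = 5.28e-07). At 3000 UMIs 99.6% ± 0.192 of ASCs, 94.0% ± 2.98 of PreAs and 99.7% ± 0.283 of Aregs held a UMI. Serping1 lies on chromosome 2 from 84765387 to 84775444.

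Cd55, the membrane inhibitor, was an ASC transcript. It measured 839, 474 and 1071 CPM in ASCs, 115, 54.7 and 115 in PreAs and 62.3, 35.0 and 70.4 in Aregs. Mouse 2 was lowest in each class. The log2 fold change was -3.11 in PreAs (SE 0.08, edgeR adjusted p = 9.44e-11) and -3.81 in Aregs (SE 0.09, adjusted p = 1.98e-10), both against ASCs, and -0.70 in Aregs against PreAs (SE 0.09, adjusted p = 0.000146). The gates do not use Cd55, which the study counts among its stemness genes. At 3000 UMIs 74.3% ± 10.7 of ASCs held a UMI, 21.3% ± 6.28 of PreAs, 12.8% ± 4.29 of Aregs and 22.7% ± 17.1 of the few mural cells. The PreA and Areg shares were not above that of mural cells, whose gate also carried PreA and ASC markers. Cd55 lies on chromosome 1 from 130439027 to 130462744, and its paralog Cd55b had 286 UMIs against 152902. Strand was not stated for the counting, and exons of C2, C1s1 and Cd55 overlap those of the antisense genes Zbtb12, Gm16567 and Gm16083, whose reads could then not be told apart.

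Levels in further gates ranked the genes in different orders. Cells with at least 3 UMIs of Krtdap, Dmkn and Sbsn, of Cilp and Myoc, or of Cited1 and Car3 were read without a test, and gates nest and share cells. C3 was 3543, 3492 and 1553 CPM in these, C4b 184, 439.8 and 405 and Cd55 936, 469 and 132, as means over 3 mice. The Krtdap gate had the lowest C4b (150.05, 243 and 159 CPM by mouse) and C2 (27.3, 50.8 and 31.8) of the gates shown in the map. Cells outside the 3 gates held 2879 ± 425 CPM of C3 and 148 ± 30.4 of C2.

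**Figure D3:**
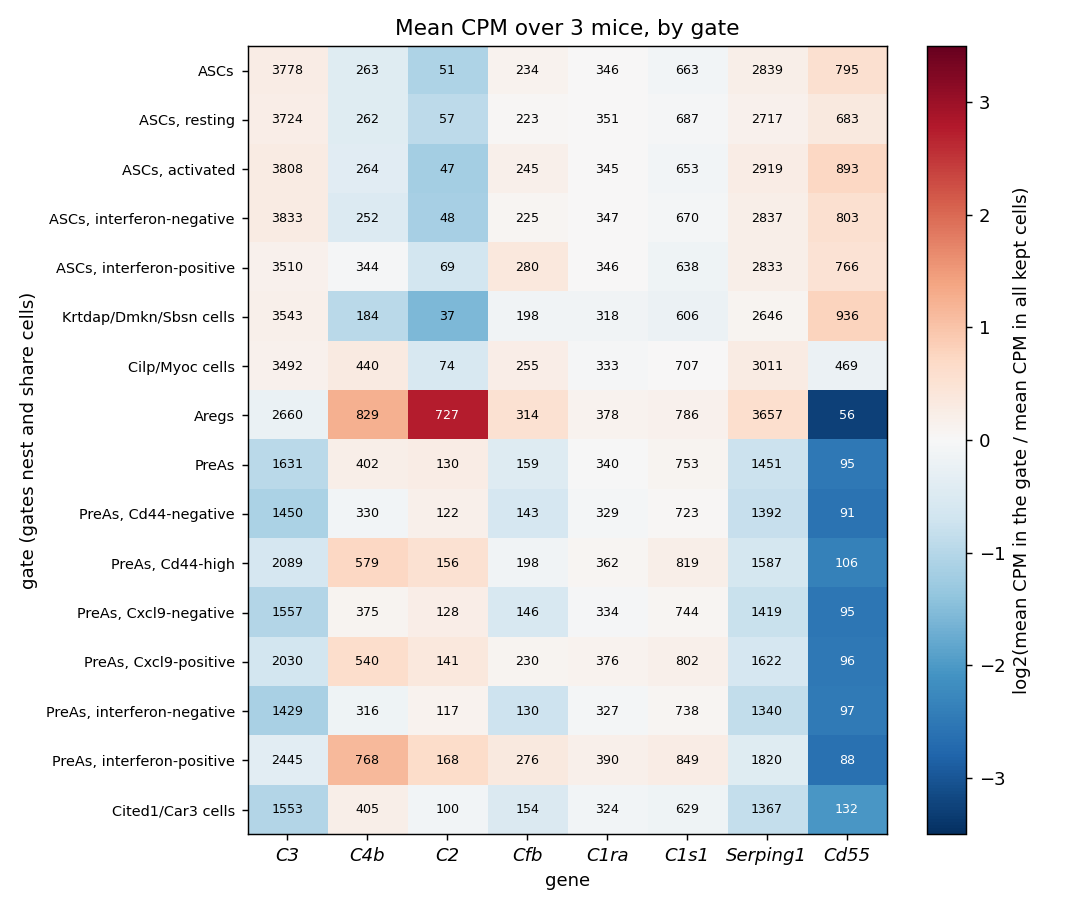
Mean CPM over 3 mice (numbers) of 8 complement genes in 16 gates, coloured by the log2 ratio to the level in all kept cells. The Areg row stands out for C2 (727 CPM). C4b is high in the Areg row (829 CPM) and in that of interferon-positive PreAs (768 CPM). Cd55 is low in the Areg and PreA rows, and the C1ra and C1s1 columns vary least.

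PreAs and Aregs that lacked C3 were also low in C4b. Cells were thinned to 3000 UMIs and divided by whether they held a C3 UMI. C3-lacking PreAs, 631, 282 and 256 cells, had 51.2, 50.8 and 56.0 CPM of C4b, against 372, 534 and 509 in PreAs with C3. Cfb was 38.6, 59.1 and 41.7 CPM against 153, 229 and 172, and C1s1 644, 659.6 and 602 against 752, 861 and 774. C2 was 51.8, 104 and 102 CPM against 100.3, 179 and 146. In Aregs, C4b was 61.4, 115 and 122 CPM in the 38, 52 and 52 cells lacking C3 and 739.9, 1071 and 1006 in those with it. C2 did not follow in Aregs, at 833, 904 and 821 CPM in the former against 653, 909.5 and 703 in the latter. C2 therefore differed in direction from C4b in this split of Aregs in mice 1 and 3 and was about level in mouse 2. The split uses C3 itself, and these values are given without a test.

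PreAs that expressed interferon-response genes carried more complement transcripts than other PreAs, at 0.689% ± 0.123 of UMIs against 0.448% ± 0.0704, while ASCs had 0.892% ± 0.0394 against 0.910% ± 0.0499 (SD, n = 3 mice, cells thinned to 3000 UMIs). Both gates were divided by the summed UMIs of Ifit1, Ifit3 and Rsad2, targets of type I interferon, into cells with at least 2 and cells with 0. Masp1 did not pass the filter on low counts in these splits. Of 8 members tested, 7 were higher in interferon-positive PreAs and 0 lower by the edgeR quasi-likelihood test, where 5.21% of the 12248 genes tested were higher and 1.15% lower. In ASCs 1 member was higher and 0 lower by the same edgeR test, against 1.47% and 0.114% of genes. In these and the other splits below, 0 members were lower by DESeq2 or at an unadjusted edgeR p under 0.05 at the main settings. Under other settings C3 and C2 were called lower in splits of ASCs, as given below. The median log2 fold change of the members was 0.58 in PreAs and -0.03 in ASCs, and that of all genes -0.01 and -0.03. With library size in place of TMM scaling, 461 genes were higher and 407 lower in PreAs in place of 638 and 141, and the same number of members, 7, was higher.

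C4b was 569, 801 and 933 CPM in interferon-positive PreAs of mice 1, 2 and 3, against 224, 367 and 356 in interferon-negative ones. Cfb was 225, 317 and 285 CPM against 99.0, 162 and 129.7. C3 was 1831, 2384 and 3119 CPM against 1065, 1458 and 1763. Each of these 3 genes, which had the largest fold changes of the members tested, was higher in positive than in negative cells in each mouse. The log2 fold change was 1.38 for C4b (SE 0.13, edgeR adjusted p = 7.3e-06), 1.18 for Cfb (SE 0.10, adjusted p = 1.74e-06) and 0.86 for C3 (SE 0.10, adjusted p = 6.16e-05). It was 0.63 for C2 (SE 0.11, adjusted p = 0.00197), 0.53 for Serping1 (SE 0.08, adjusted p = 0.000321), 0.35 for C1ra (SE 0.06, adjusted p = 0.00196) and 0.29 for C1s1 (SE 0.06, adjusted p = 0.00445). The edgeR call of C2 was lost without mouse 2 (adjusted p = 0.0818), and that of C1s1 without mouse 1 (0.0511) or mouse 3 (0.102). Cd55 gave -0.02 (95% interval -0.18 to 0.14).

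In ASCs, C3 was 3385, 3208 and 3937 CPM in interferon-positive cells against 3654, 3659 and 4188, a log2 fold change of -0.15 (95% interval -0.35 to 0.04). C4b was 323, 399 and 309 CPM against 220.4, 310.5 and 224 (0.44, SE 0.13, edgeR adjusted p = 0.186). C2 was the member that passed, at 55.9, 84.4 and 66.1 CPM against 38.3, 63.9 and 42.4 (0.49, SE 0.11, adjusted p = 0.0414), a call that was lost without mouse 2 (adjusted p = 0.162), without mouse 3 (0.136) and without the top 5% of cells by UMIs (0.097). C4b passed after thinning to 3000 UMIs (adjusted p = 0.0269). Without the low-count filter the edgeR test also called C4b and Cfb higher, and it called C3 lower (adjusted p = 0.0091).

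The difference between the classes was tested itself, as an interaction term. The log2 fold change of interferon-positive over interferon-negative cells was greater in PreAs than in ASCs for 6 of 8 members and lower for 0. Over all genes, 2.03% had a greater and 0.286% a lower fold change in PreAs by the edgeR test. The difference of log2 fold changes was 1.02 for C3 (SE 0.15, adjusted p = 0.00136), 0.94 for C4b (SE 0.19, adjusted p = 0.0138), 0.89 for Cfb (SE 0.13, adjusted p = 0.00215) and 0.56 for Serping1 (SE 0.11, adjusted p = 0.0112). C1s1 gave 0.39 and C1ra 0.38 (adjusted p = 0.0182 and 0.0274), and C2 0.14 (95% interval -0.17 to 0.45) and Cd55 0.09 (-0.12 to 0.29) did not pass. C3 and Cfb passed without any 1 of the mice. Without mouse 2 only these 2 remained, without mouse 3 C4b also passed, and without mouse 1 C3, C4b, Cfb and Serping1 did. With library size only, 4 members passed, and 136 genes had a greater and 90 a lower fold change in PreAs, in place of 249 and 35.

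**Figure D4:**
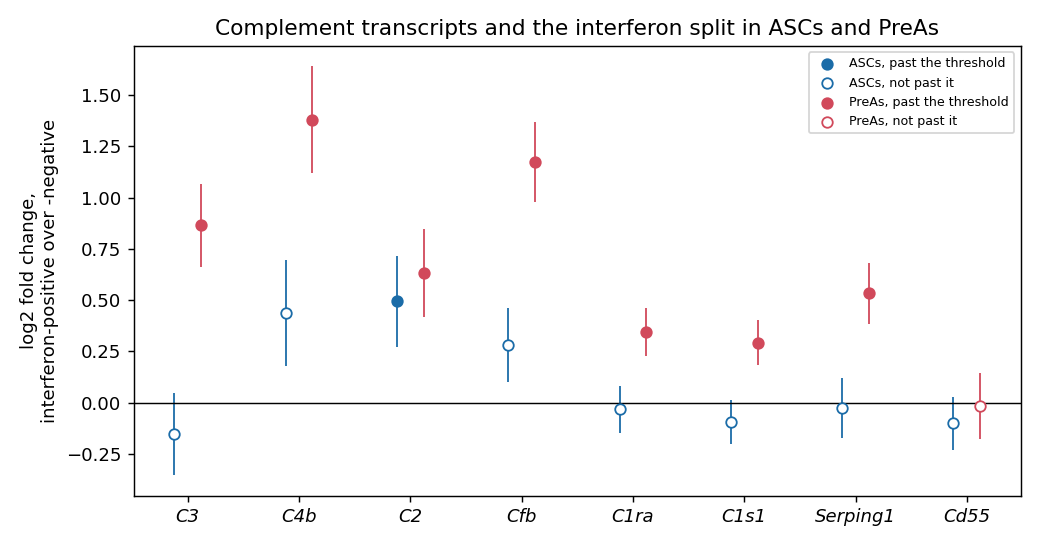
Log2 fold change (vertical axis) of each gene in interferon-positive over interferon-negative cells, in ASCs (blue) and PreAs (red), with 95% intervals by a normal approximation. Filled points passed an adjusted p of 0.05. C4b, Cfb and C3 lie between 0.86 and 1.38 in PreAs and between -0.15 and 0.44 in ASCs.

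Other measures moved with the interferon split of PreAs. Interferon-positive PreAs, 278, 334 and 206 cells, had a median of 8551.5, 13973.5 and 7633.5 UMIs, against 8012, 12742 and 7185. The 5 PreA markers summed to 2893 to 3610.0 CPM in them against 3585 to 4313, the 6 endothelial markers to 5.67 to 125 CPM against 4.45 to 28.8 and the 7 leukocyte markers to 0 to 1.05 against 0.685 to 4.17. Cxcl9-positive cells made up 40.6%, 35.6% and 38.3% of interferon-positive PreAs and 9.68%, 11.7% and 8.66% of the negative ones. With Cxcl9-positive cells left out of both sides, an alternative chosen after seeing the data, 6 of the 7 members still passed (C4b 1.30, Cfb 0.99, C3 0.76, while C1s1 had an adjusted p of 0.0747), and the interaction was called for 3 members, C3 (0.91), C4b (0.86) and Cfb (0.70). The interactions of Serping1 (0.50), C1ra (0.35) and C1s1 (0.32) then missed the threshold of the edgeR test (adjusted p = 0.0541, 0.0872 and 0.154). With cells of the Areg gate left out, the call of each member tested stayed the same in the split and in the interaction.

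PreAs positive for Cxcl9, a chemokine gene induced by interferon gamma, were higher in C3, C4b, Cfb, C1ra, C1s1 and Serping1. At least 1 Cxcl9 UMI was found in 330, 264 and 259 PreAs. Of 8 members 6 were higher and 0 lower in them by the edgeR test, against 4.43% and 0.886% of 11620 genes, or 515 higher and 103 lower genes (391 and 167 with library size only, with 5 members higher). Cfb was 192, 271 and 227 CPM against 108, 187 and 141, a log2 fold change of 0.73 (SE 0.06, adjusted p = 6.86e-07). C4b was 391, 627 and 603 CPM against 261, 443 and 421 (0.59, SE 0.04, adjusted p = 1.22e-07). C3 gave 0.44 (SE 0.03, adjusted p = 2.15e-07), Serping1 0.25, C1ra 0.22 and C1s1 0.17, while C2 gave 0.22 (adjusted p = 0.111) and Cd55 0.07. By edgeR the call of C1s1 was lost after thinning (adjusted p = 0.0866), with library size (0.121) and without mouse 2 (0.105), that of C1ra after thinning (0.0529), and C2 was called without mouse 3 (0.022), without the top 5% of cells by UMIs (0.0422) and without the low-count filter (0.0334). Endothelial markers summed to 160.3, 138 and 0.999 CPM in Cxcl9-positive PreAs against 10.0, 36.3 and 4.61, with 5 of the 6 at 0 in the positive cells of mouse 3. The part of endothelial transcripts in the result was not tested. With only interferon-negative cells (0 UMIs of Ifit1, Ifit3 and Rsad2) kept on both sides, 169, 108 and 133 Cxcl9-positive PreAs remained. In this alternative, chosen after seeing the data, 1 member, Cfb, still passed (0.30, edgeR adjusted p = 0.0417). C3 and C4b gave 0.15 and 0.17.

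The study divides ICAM1+ cells by CD44, calls the CD44-high ones pro-preadipocytes and keeps the name PreAs for the CD44-low ones. It found these populations by transcripts and sorted them on surface protein. Here PreAs are all cells of the Icam1 and Fabp4 gate. Those with at least 2 Cd44 UMIs were compared with those that had none. The 8 members tested were higher in Cd44-high PreAs by the edgeR test and 0 lower, against 12.3% and 6.41% of 11357 genes, or 1394 higher and 728 lower genes (950 and 1303 with library size only, with 6 members higher). C4b was 359, 736 and 643 CPM in Cd44-high PreAs against 255, 351 and 384, a log2 fold change of 0.87 (SE 0.09, adjusted p = 4.03e-05). C3 was 1327, 2258 and 2683 CPM against 1140.5, 1452 and 1757 (0.58, SE 0.07, adjusted p = 0.000168). Cfb gave 0.53, C2 0.43, Cd55 0.28, C1s1 0.27, Serping1 0.26 and C1ra 0.23, with adjusted p between 0.00181 and 0.0252. DESeq2 called 6 of the 8, without C1ra (adjusted p = 0.0868) and Cd55 (0.178), and Cd55 was also lost after thinning (0.0621, edgeR). Cd55 was higher in mice 1 and 3 (134 and 129 against 106 and 111 CPM) and level in mouse 2 (54.3 against 55.0).

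Interferon-positive and Cd44-high cells overlapped: 24.8%, 32.3% and 26.2% of interferon-positive PreAs were Cd44-high, against 11.7%, 20.1% and 16.2% of interferon-negative ones. With only interferon-negative cells kept on both sides, 204, 185 and 249 Cd44-high PreAs remained. Then 3 members, C3 (0.39), C4b (0.61) and C1s1 (0.20), still passed in the Cd44 split. Of those that missed it, Cd55 gave 0.30, C2 0.25, Cfb 0.27, C1ra 0.14 and Serping1 0.11. Without mouse 3 the calls of C1ra, Serping1 and Cd55 were lost, which left 5, without mouse 2 those of C1ra and Serping1, and without mouse 1 that of Cd55. Cells of the Areg gate made up 2.33%, 10.3% and 3.86% of Cd44-high PreAs, against 0.828%, 4.91% and 2.61% of Cd44-negative ones. The Cd44 split was not repeated without them. Cd44-high PreAs had a median of 8836, 13836 and 7558 UMIs against 7859, 12617 and 7096, and the 5 PreA markers summed to 2627 to 3479 CPM against 3842 to 4402. The part of these differences in the result was not tested.

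Among ASCs, cells with at least 3 UMIs of the immediate-early genes Nr4a3 plus Fosl1 were compared with cells that had none. Of 8 members 4 were higher and 0 lower by the edgeR test, against 12.9% and 9.84% of 12618 genes. Cd55 was 956, 558 and 1163 CPM in the activated cells against 740.2, 361 and 949, a log2 fold change of 0.56 (SE 0.08, adjusted p = 0.00255). Serping1 gave 0.23 (adjusted p = 0.00739), Cfb 0.25 (0.0326) and C3 0.16 (0.0405). These small differences turned on the scaling. With library size only the median of all genes moved to -0.12, 905 genes were higher and 2690 lower in place of 1626 and 1242, and of the members Cd55 was called higher (0.43) and C2 lower (-0.29, edgeR adjusted p = 0.0253). C2 was also called lower without mouse 2 under the main scaling (-0.31, edgeR adjusted p = 0.000881). Cfb and C3 were not called by DESeq2. The activated cells had a median of 7821, 12445.5 and 7039 UMIs against 6841, 11516.5 and 5984, the 5 Areg markers summed to 141 to 192 CPM in them against 263 to 342 and the 5 PreA markers to 389 to 465 against 514 to 610.2. The part of these differences in the result was not tested.

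Without mouse as a block, fewer members passed, and fewer of all genes tested, as counted in the closing section. The counts were 4 in PreAs against ASCs, 4 in Aregs against ASCs, 5 in Aregs against PreAs, 1 in the interferon split of PreAs (C4b), and 0 by edgeR in the other splits and in the interaction. In the classes, C3, C2, Serping1 and Cd55 still passed in PreAs against ASCs, C4b, C2, Cd55 and Masp1 in Aregs against ASCs, and C3, C4b, C2, Cfb and Serping1 in Aregs against PreAs. The pairing of the sums comes from the animal, since the sums of a mouse are cells of 1 library.

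Of the 45 other complement genes, 6 had no UMI and 22 passed the filter on low counts in the class comparisons. The C1q chains C1qa, C1qb and C1qc, which start the classical pathway, had 32, 24 and 24 UMIs in all kept cells, and Mbl1, Fcnb, C8a, C8b, C5ar2 and Vsig4 had none. In Aregs against ASCs 11 of the 22 were higher and 3 lower, in PreAs against ASCs 10 and 6, and in Aregs against PreAs 8 and 1. Over all genes the shares were 20.4% and 24.3%, 28% and 28.6%, and 12.6% and 12.7%, so that the lower calls in PreAs against ASCs were near the share over all genes. Some genes passed the filter only through a single class, and their calls for that class were favoured by the filter. Examples are Cfi (5, 13 and 7 UMIs) and Colec11 (5, 13 and 8) through Aregs, and Colec10 and Cd55b through ASCs. The other terminal component genes were low (C6 199, C8g 118, C9 8 and Hc, which encodes C5, 298 UMIs), while C7 had 87288.

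C7, a membrane attack complex component, measured 2067, 167 and 1439.5 CPM in Aregs, 353, 51.1 and 444 in ASCs and 156, 26.1 and 243 in PreAs of mice 1, 2 and 3. Mouse 2 was lowest in each class. The log2 fold change was 2.03 in Aregs against ASCs (SE 0.19, edgeR adjusted p = 4.19e-06), 3.07 in Aregs against PreAs and -1.05 in PreAs against ASCs.

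Vtn (vitronectin) and Clu (clusterin) encode inhibitors of the terminal complex. Vtn measured 165, 198 and 134 CPM in Aregs, 65.4, 99.2 and 81.0 in PreAs and 12.9, 17.6 and 11.4 in ASCs, and was higher in Aregs (log2 fold change 3.56, SE 0.11, edgeR adjusted p = 1.23e-09) and PreAs (2.51, SE 0.10, adjusted p = 1.89e-09) than in ASCs. Clu measured 38.8, 46.3 and 51.5 CPM in Aregs, 2.59, 11.1 and 11.7 in PreAs and 23.6, 28.0 and 27.4 in ASCs (PreAs against ASCs -1.76, SE 0.24, adjusted p = 7.15e-05). C1rl, a C1r-like protease gene, was lower in PreAs than in ASCs (-1.57, SE 0.12, adjusted p = 3.37e-07). Within PreAs, Clu was higher in Cd44-high cells (1.29, SE 0.31, adjusted p = 0.0123). Cfd, which encodes adipsin (factor D) and is abundant in mature adipocytes, was higher in Cxcl9-positive PreAs (3.00, SE 0.42, edgeR adjusted p = 0.000244), on 56, 44 and 5 UMIs against 14, 48 and 7. Cfd passed the low-count filter of this split only through its Cxcl9-positive sums, so the call was favoured by the filter. Endothelial markers were also higher in Cxcl9-positive PreAs of mice 1 and 2, as given above, and their part was not tested.

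**Figure D5:**
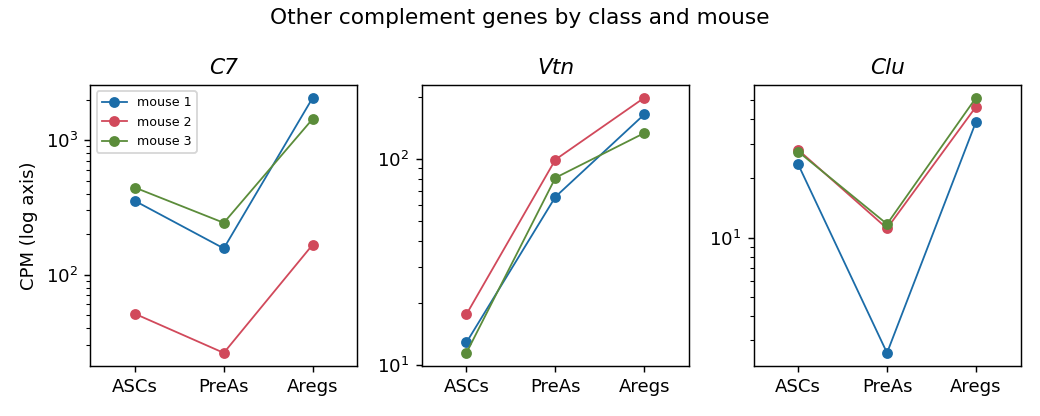
CPM on log axes of C7, Vtn and Clu in ASCs, PreAs and Aregs, with 1 point and 1 line per mouse. All 3 are highest in Aregs in each mouse, and C7 in mouse 2 lies below the other mice in each class.

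Markers of complement-producing blood cells were low in the gates. The 7 leukocyte markers summed to 1.18 to 3.85 CPM in ASCs, 0.715 to 3.23 in PreAs and 1.69 to 19.4 in Aregs, with 4 and 6 of them, Ptprc and Tyrobp included, at 0 in Aregs of mice 2 and 3. The 5 mesothelial markers summed to 0.571 to 74.8 CPM in Aregs, the high value in mouse 3, where C2 and C4b lay between those of the other mice. Mural markers were 50.7 to 101 CPM in Aregs, 60.6 to 88.7 in PreAs and 15.5 to 25.4 in ASCs. Their part in the class differences was not tested.

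Over 17 gates with a value in each mouse, the genes whose mean over mice of log2(CPM + 1) ran most like each member were named as a description, since the gates nest and share libraries. For C3 they were Man1a, Ly6c1 and Adora2b (Pearson's r 0.974 to 0.976), for C2 Ecm2, Ccbe1 and Gdf10 (0.955 to 0.980), and for Serping1 Lamb2, Man2a1 and Gabra3 (0.974 to 0.983). For C4b they were Socs1, Slc10a6 and Cyp2f2 (0.922 to 0.942), for Cfb Xdh, Ube2l6 and Bnc2 (0.850 to 0.918) and for C1s1 Arnt, Ifi207 and Emp1 (0.905 to 0.927). C1ra was followed by Hacd1, Fkbp9 and Xpot (0.833 to 0.868) and Cd55 by Rpl21, Pcsk6 and Gm45187 (0.993). Among the members, C3 ran with Serping1 (0.922) and C2 with C4b (0.852), while C2 and Cd55 ran opposite (-0.848).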

How the data were processed

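UMI counts per gene and cell barcode from 3 libraries were used as deposited. The authors made these counts with Cell Ranger (2.1.1 in the submitters' notes, 4.0.0 in a file header) on mm10, without normalization. The members and gene lists were chosen with earlier results of these data known. Raw UMIs were summed per mouse and gate and tested with edgeR's quasi-likelihood test (edgeR 4.0.16, limma 3.58.1, R 4.3.3) with TMM scaling, filterByExpr, mouse as a block and Benjamini-Hochberg adjustment over all genes tested, at an adjusted p of 0.05. The 3 classes were fitted together and each split of a class in its own fit. Sums of 1 mouse come from 1 animal, and their deviations correlated with r of 0.20 to 0.67 over 13385 genes.

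Shares used cells thinned to 3000 UMIs, leaving out shallower cells, with exact Clopper-Pearson intervals (scipy 1.17.1) that cover counting error only. Doublets were not removed, and the top 5% of cells by UMIs were left out as an alternative. Other alternatives were library size, RLE, no low-count filter, DESeq2 1.42.0, no block, a mitochondrial limit of 10%, thinning, stricter gates, no cells in more than 1 gate and leaving out each mouse. All 9 members were named, with wider-list genes past the threshold at an absolute log2 fold change of at least 1 and 10 CPM, and the 3 genes most like each member. For 1 wider-list gene that met this rule the result is not reported here. On simulated counts of 13166 genes (PreAs against ASCs), 174 of 200 genes changed 2-fold were recovered, beside 28 false calls. On those of 11252 genes (Cd44 split), 166 of 200 were recovered, beside 16 false calls. In each of these runs false calls were a larger share of the calls made than the adjusted p threshold sets. The simulated counts held no shift of a gene by mouse and 200 changed genes, while 7568 genes were called in the real comparison of PreAs with ASCs. The share of false calls among the genes called in the real data was not tested.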

Additional observations from a re-analysis of the deposited data

Results flagged for a closer look

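The fold change of interferon-positive over interferon-negative cells differed between PreAs and ASCs by the interaction test for 6 genes. As PreA minus ASC log2 fold change, these were C3 by 1.02, C4b by 0.94, Cfb by 0.89, Serping1 by 0.56, C1s1 by 0.39 and C1ra by 0.38. For C3 and Cfb the call was made without any 1 of the mice.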

How the results depend on the processing

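Of the members' fold changes under the other settings listed with the methods, 762 stayed on the same side of the threshold, 91 lost the call, 17 gained it and 0 changed sign as a called value. The 762 include uncalled values that changed sign. Among them were Serping1 in the interferon split of ASCs (4 of 11 settings) and C1s1 in activated ASCs (2 of 11). Without mouse as a block, members and genes called were 4 and 4009 in PreAs against ASCs, 4 and 3178 in Aregs against ASCs, 0 and 1 in the Cd44 split, 0 and 25 in the Cxcl9 split, 0 and 23 in activated ASCs, 0 and 85 in the interferon split of ASCs, 1 and 114 in that of PreAs, and 0 and 1 in the interaction, and 1470 genes were called in Aregs against PreAs. The 0 counts are by edgeR. By DESeq2, 804 genes were called in the Cd44 split, 319 in the Cxcl9 split, 1291 and 2 members in activated ASCs and 502 in the interaction. With library size only, 2 members were called in activated ASCs. Without the low-count filter, 433 genes and 4 members (C2, C4b and Cfb higher, C3 lower) were called in the interferon split of ASCs and 672 genes in the interaction. Thinned to 3000 UMIs, the counts were 976 genes for Cd44, 332 for Cxcl9, 1758 for activated ASCs, 446 for interferon in PreAs, 179 for the interaction and 2 members for interferon in ASCs. Without the top 5% of cells by UMIs, 0 members were called by edgeR in the interferon split of ASCs. The cause of these shifts was not tested.

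Leaving out 1 mouse gave 6 members and 6099 to 6583 genes in PreAs against ASCs, 7 to 8 and 4199 to 4983 in Aregs against ASCs, 6 and 2089 to 2602 in Aregs against PreAs, 5 to 7 and 1075 to 1678 for Cd44, 5 to 7 and 445 to 697 for Cxcl9, 4 to 5 and 1619 to 3293 for activated ASCs, 0 to 1 and 131 to 162 for interferon in ASCs, 6 and 410 to 594 for interferon in PreAs, and 2 to 4 and 68 to 205 for the interaction. Of the alternatives chosen after seeing the data, leaving out Cxcl9-positive cells gave 377 genes for interferon in PreAs and 3 members and 100 genes for the interaction. Keeping only interferon-negative cells gave 3 members and 1266 genes for Cd44 and 1 and 173 for Cxcl9.

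Without thinning, differences in the share of cells with a UMI changed sign for C1ra in PreAs minus ASCs (0.638 percentage points, against -2.59), for Cfb (-7.92, against 3.55), C1ra (-9.50, against 2.02) and C1s1 (-3.64, against 3.85) in Aregs minus ASCs, and for C3 (-1.75, against 7.02) and C1ra (-10.1, against 4.61) in Aregs minus PreAs. Aregs were shallower than both other classes in each mouse. With 3 mice the exact test of a share cannot go below p = 0.25.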
